A study of Mus musculus with 8 samples.

Results

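The array used here carried 1092 probes named after human long intergenic non-coding RNAs (lincRNAs), out of 60691 non-control probes kept for the counts and tests. They are all non-control probes whose name begins with humanlincRNA, followed by a locus number and a plus or minus sign, and each was printed as 1 spot. The sign is read here as the strand probed, which the files do not state. The 1092 probes covered 557 numbered loci. Both signs were present at 535 of these loci, 7 loci had a plus probe alone and 15 had a minus probe alone. The mouse target of each probe is not given in the sources used here, and neither are the probe sequences, so no sequence is printed.

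RNA came from the parotid gland, a salivary gland that secretes serous saliva, of 16-week-old male mice, 4 db/db and 4 db/m. The db/db mice are leptin receptor-deficient, weighed 40 to 55 g and serve as a model of spontaneous type 2 diabetes. The age-matched db/m controls weighed 25 to 30 g, and no strain is given. All animals received chloral hydrate at 0.4 g/kg before the gland was taken. The arrays are named by their labelled replicate number, which is 1, 2, 5 and 8 for db/db and 2, 5, 7 and 8 for db/m. The labels do not say outright that the db/m arrays come from separate animals. All p-values given here therefore refer to the spread between these 8 samples, which may be technical.

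LincRNAs are transcribed from stretches of the genome between protein-coding genes. They are often spliced and polyadenylated like messenger RNAs, and they are typically less abundant and more restricted to single tissues. Their sequence changes quickly between species, so a transcript at the same place in human and mouse can share little sequence. RNAs made from opposite strands of one locus are separate transcripts. The labelling used here removed ribosomal RNA and primed at random along the transcripts, so signal does not depend on a poly(A) tail.

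The level of a probe is log2 of its processed intensity minus the 75th percentile of the same array, so a level of 0 lies at that percentile. Detection means that the scanner software marked the spot as well above background. The arrays had 75th percentile intensities between 317 and 379, and 85.3% to 92.3% of all non-control spots were well above background. No spot was saturated. All db/db arrays lay in one row of 1 slide and all db/m arrays in the other row, so slide row and group cannot be told apart. The tissue could not be checked, since none of 8 parotid acinar markers had a probe that the files pair with its accession, and of 31 cell type markers only Mzb1 and Mbp had one. In bulk tissue, fewer cells of a type and less RNA per cell cannot be told apart.

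The humanlincRNA probes were detected less often than the probes named ASMM10LNC, the largest named series on the array. On all 8 arrays 656 of 1092 were well above background, or 60.1%, compared with 84.2% of 27812 ASMM10LNC probes. On none of the arrays were 208, or 19.0%, compared with 5.12%. The other 228 were detected on 1 to 7 arrays. Array by array, the share detected was 70.1%, 71.3%, 75.6% and 75.8% in db/db replicates 1, 2, 5 and 8. In db/m replicates 2, 5, 7 and 8 it was 65.4%, 63.6%, 71.6% and 70.7%. Every one of these 8 shares lay below the lowest share of the ASMM10LNC probes, 86.3%, and the highest of the latter was 93.1%. Between the groups the shares overlapped, because db/db replicates 1 and 2 lay within the db/m range.

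**Figure D1:**
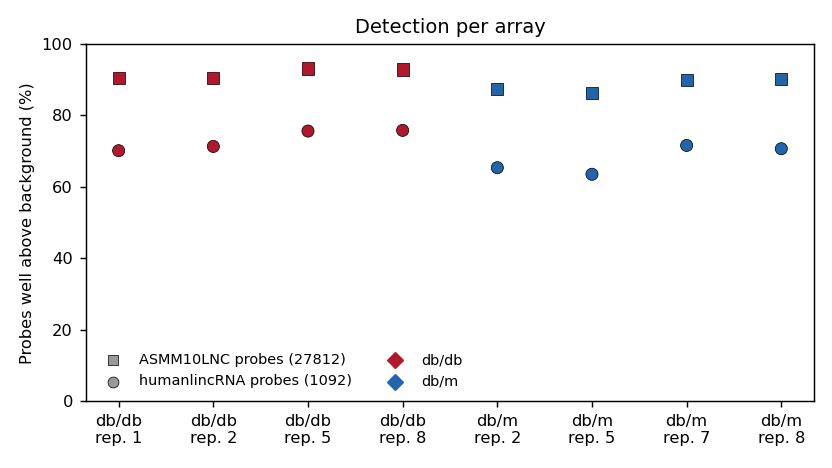
Share of probes well above background (y axis, percent) on each of the 8 arrays (x axis), with circles for the 1092 humanlincRNA probes and squares for the 27812 ASMM10LNC probes, db/db in red and db/m in blue. The circles lie between 63.6% and 75.8% and the squares between 86.3% and 93.1% on every array.

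Their signal was also lower. The median level over the 8 arrays was -3.68 for the humanlincRNA probes and -1.97 for the ASMM10LNC probes. A mean level above 0 was reached by 104 humanlincRNA probes, 9.52% of them, compared with 23.2% of the ASMM10LNC probes. Within each array the ASMM10LNC median exceeded the humanlincRNA median by 1.64 to 1.81. Probes differ in how well they bind, so these are differences in probe signal and not in RNA amount.

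A few humanlincRNA probes were among the bright probes of the array. humanlincRNA1119+ had the highest mean level, 8.46, with 8.47, 8.35, 8.34 and 8.32 in db/db and 8.59, 8.61, 8.48 and 8.56 in db/m. All db/m values lay above all db/db values, by a narrow margin, and the difference of -0.19 ± 0.08 (standard error, as for every difference below) was not called (limma, adjusted p = 0.0957). It was called under normexp background correction alone, at -0.17 (adjusted p = 0.0463). humanlincRNA2397+ had a mean level of 7.09, humanlincRNA1739+ of 6.89 and humanlincRNA0847- of 5.88. Their group differences of -0.16 ± 0.11, 0.02 ± 0.15 and -0.09 ± 0.11 were not called (adjusted p = 0.29, 0.928 and 0.603), and the groups overlapped at all 3.

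The opposite strands of these bright loci had lower signals, on their own probes. humanlincRNA1119- was lower in db/db, with -0.52, -0.89, -0.85 and -0.87 against -0.45, -0.44, -0.37 and -0.41 in db/m. The groups did not overlap, although db/db replicate 1 lay close to the db/m arrays, and the difference was -0.37 ± 0.10 (adjusted p = 0.0231). Leaving out db/db replicate 2, 5 or 8 ended that call (adjusted p = 0.0618, 0.0673 and 0.057), and so did leaving out db/m replicate 7 or 8 (adjusted p = 0.0571 and 0.0504) and slide column as a block (adjusted p = 0.0558). humanlincRNA2397- had a db/db mean of 4.70 ± 0.23 and a db/m mean of 4.03 ± 0.47 (SD, n = 4), a difference of 0.67 ± 0.22 that missed the threshold narrowly (adjusted p = 0.0501). It was called under 8 of the 18 other fits, among them normexp (0.70, adjusted p = 0.0291) and array weights (0.77, adjusted p = 0.0238). The 8 include the fits without db/db replicate 1 (0.78, adjusted p = 0.0399), without db/m replicate 7 (0.79, adjusted p = 0.0405) and without db/m replicate 8 (0.81, adjusted p = 0.0353). humanlincRNA0847+ differed by 0.29 ± 0.23 (adjusted p = 0.391), and humanlincRNA1739- was not well above background on any array.

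The comparison of db/db with db/m asked which of these probes differ in the parotid gland of leptin receptor-deficient mice. Detection on at least 4 of the 8 arrays was required for a test, and p-values were adjusted over all 54638 probes tested on the array, by Benjamini-Hochberg after limma's test. Of the 1092 humanlincRNA probes 786 were tested and 306 were not. Just inside the limit were 32 probes detected on 4 arrays, and just outside it 25 detected on 3. A probe is called here at an adjusted p below 0.05. The filter lets through probes detected in one group alone, and 7 humanlincRNA probes passed it only through the db/db arrays, so the counts describe the tested probes and not all members.

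Of the 786 tested probes 176 were called, or 22.4%, with 73 higher (9.29%) and 103 lower (13.1%) in db/db. The share called over the whole array was 27.8% (15.9% higher, 11.9% lower), and for the ASMM10LNC probes it was 25.9% (13.8% higher, 12.1% lower). The humanlincRNA share lies near these backgrounds and slightly under them. Values of the 2 groups did not overlap at 166 humanlincRNA probes, or 21.1%, compared with 30.7% over the array and 28.8% of the ASMM10LNC probes. The median difference was 0.01, compared with 0.02 for the ASMM10LNC probes and 0.03 for all tested probes. Calls with a difference of at least 2-fold numbered 43, 18 higher and 25 lower, which is 5.47% of the tested probes against 5.17% over the array and 4.55% of the ASMM10LNC probes. The 73 rises, and the 18 among them, include humanlincRNA0493-, humanlincRNA0922+, humanlincRNA1070+, humanlincRNA1697+ and humanlincRNA2038+. These were detected on no db/m array and passed the filter only through the group in which they are high.

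The balance of higher and lower calls depended on the scaling. The share of higher calls was 41.5% with the 75th percentile, 32.1% with quantile normalization (59 higher, 125 lower) and 26.2% with normexp (51 higher, 144 lower). For the ASMM10LNC probes the same 3 shares were 53.3%, 47.0% and 41.8%. Without db/m replicate 8 the humanlincRNA calls leaned the other way, with 77 higher and 71 lower. Whether the humanlincRNA probes differ from the ASMM10LNC probes in this balance was not tested.

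Calls were more frequent among bright than among dim probes in both series. Below a level of -4 the share called was 15.7% of 185 humanlincRNA probes and 18.9% of the ASMM10LNC probes. From -4 to -3 it was 19.0% and 18.0%, and from -3 to -2 it was 19.3% and 21.9%. From -2 to 0 it was 28.9% and 27.6%, and above 0 it was 33.7% and 34.5%. At a given level the 2 series thus had similar shares, and the humanlincRNA probes had more of their tested members at low levels, 23.5% below -4 compared with 10.5%. The median spread within a group (SD) was 0.354 for humanlincRNA probes below -4 and 0.167 for those above 0. Higher and lower humanlincRNA calls numbered 18 and 11 below -4, 16 and 17 from -4 to -3, and 13 and 16 from -3 to -2. They numbered 14 and 36 from -2 to 0, and 12 and 23 above 0. The ASMM10LNC calls leaned higher in every bin below -2. They were evenly split at 1051 and 1052 from -2 to 0 and leaned lower above 0, at 980 and 1246. Over all tested probes, 2511 were higher and 2161 lower from -2 to 0.

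**Figure D2:**
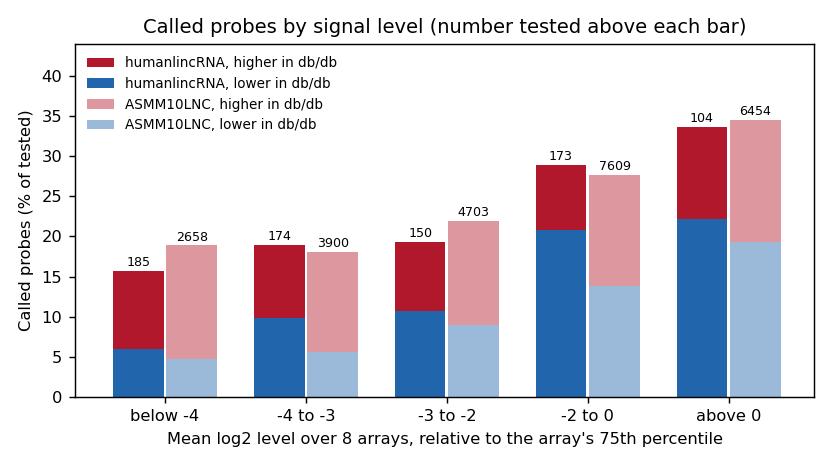
Share of tested probes called (y axis, percent of the tested probes in a bin) by mean level over the 8 arrays (x axis, log2 relative to the array's 75th percentile), stacked as higher in db/db (red) and lower in db/db (blue), with dark bars for humanlincRNA and pale bars for ASMM10LNC probes and the number tested above each bar. The called share of the humanlincRNA probes goes from 15.7% in the dimmest bin to 33.7% in the brightest. Their lower calls outnumber the higher ones in every bin from -4 upward, most clearly from -2 upward.

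With the 75th percentile scaling, called rises had lower signals than called falls. The median level was -2.83 for the 73 called rises and -1.74 for the 103 called falls. The ASMM10LNC calls had the same order, with medians of -1.59 for rises and -0.56 for falls. With normexp the order turned, with medians of -1.18 for the called humanlincRNA rises and -1.99 for the called falls. It turned for the ASMM10LNC calls too, at -0.29 and -0.85. Well above background on all 8 arrays were 53 of the 73 humanlincRNA rises and 97 of the 103 falls. Among calls of at least 2-fold the figures were 5 of 18 rises and 22 of 25 falls, and for the rises they were 13 of 26 without db/db replicate 1 and 11 of 22 without db/db replicate 8. For the ASMM10LNC calls of at least 2-fold they were 395 of 549 rises and 555 of 602 falls. With normexp, which adds an offset of 50 and so shrinks differences between dim spots, 1 humanlincRNA probe was at least 2-fold higher and 9 were at least 2-fold lower. The sizes of the rises below therefore depend on the background correction more than those of the falls.

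The largest rise was humanlincRNA1600-, at 8.01-fold. Its levels were -1.93, -2.07, -1.82 and -1.83 in db/db replicates 1, 2, 5 and 8, and -4.45, -4.95, -4.67 and -5.57 in db/m replicates 2, 5, 7 and 8. The db/db arrays lay close together and far above every db/m array. The difference was 3.0 ± 0.21 (adjusted p = 4.88e-05). It was well above background on all 4 db/db arrays and on 2 db/m arrays, so the db/m mean of -4.91 ± 0.49 (SD, n = 4) lies near background, and with normexp the difference was 1.00, still called. The plus probe of the same locus was not well above background on any of the 8 arrays.

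Another 5 probes had the next largest rises among those detected in both groups. humanlincRNA1756+ rose 3.41-fold, from -6.49, -6.49, -5.03 and -5.01 in db/m to -4.41, -3.43, -4.06 and -4.03 in db/db (1.77 ± 0.39, adjusted p = 0.00957). The db/m arrays fell into a dim pair and a brighter pair, and 1 of them was well above background. humanlincRNA0115+ had -3.32, -1.53, -2.04 and -2.94 in db/db and -4.87, -3.73, -3.59 and -4.06 in db/m, a 3.06-fold rise (1.61 ± 0.41, adjusted p = 0.0184). The spread among the db/db arrays was wide there (SD 0.82), and the lowest of them came close to the highest db/m array. humanlincRNA1680- rose 3.03-fold, from -4.88 ± 0.63 to -3.28 ± 0.51 (1.60 ± 0.33, adjusted p = 0.00771). humanlincRNA2350- rose 3.01-fold, from -4.38 ± 0.61 to -2.79 ± 0.75 (1.59 ± 0.40, adjusted p = 0.0171). humanlincRNA2197- rose 2.70-fold, from -5.39 ± 0.36 to -3.96 ± 0.56 (1.43 ± 0.28, adjusted p = 0.00538; SD, n = 4 per group).

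The db/m side of these 5 rises was only partly well above background. Well above background in db/m were 1 array for humanlincRNA1756+, 3 for humanlincRNA0115+, 2 for humanlincRNA1680-, 3 for humanlincRNA2350- and 1 for humanlincRNA2197-. With each db/m spot raised to at least the dimmest level detected on its array, a setting chosen after the data were seen, the rises were 1.87, 3.06, 2.47, 2.82 and 1.88-fold in that order, and humanlincRNA1600- was 6.92-fold higher. The folds of humanlincRNA1756+ and humanlincRNA2197-, and their rank among the rises, therefore rest on values below detection.

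The size of these 5 rises, and some of their calls, changed under other settings. With normexp they were 0.19, 0.58, 0.29, 0.49 and 0.18 in the order given, and the calls of humanlincRNA1756+ (adjusted p = 0.0701) and humanlincRNA2197- (adjusted p = 0.123) were lost. Without db/db replicate 5 humanlincRNA0115+ (1.47, adjusted p = 0.0551) and humanlincRNA2350- (1.48, adjusted p = 0.0514) were no longer called. Of their opposite strands, humanlincRNA0115- (0.11 ± 0.09, adjusted p = 0.37) and humanlincRNA1680+ (0.23 ± 0.18, adjusted p = 0.368) were not called. humanlincRNA2350+ was 0.52 ± 0.18 higher and not called (adjusted p = 0.0552), but it was called under 8 of the 18 other fits. Among these were normexp (0.44, adjusted p = 0.0334), array weights (0.58, adjusted p = 0.027) and the fits without db/db replicate 1 (0.59, adjusted p = 0.0488) and without db/m replicate 8 (0.64, adjusted p = 0.0279). humanlincRNA2197+ was not well above background on any array.

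The largest falls were found at brighter probes, all 6 of them well above background on all 8 arrays. humanlincRNA2190+ fell 5.84-fold, with 3.75, 3.68, 3.37 and 3.75 in db/m and 0.06, 1.77, 1.19 and 1.35 in db/db (-2.55 ± 0.31, adjusted p = 0.00052). Every db/db array lay below every db/m array, and db/db replicate 1 was the lowest. humanlincRNA2237+ fell 5.52-fold, from 1.58, 1.43, 1.31 and 1.34 in db/m to -2.09, -0.32, -1.07 and -0.72 in db/db (-2.47 ± 0.32, adjusted p = 0.00067). humanlincRNA1044- fell 4.45-fold, from -1.62 ± 0.11 to -3.77 ± 0.47 (SD, n = 4; -2.16 ± 0.21, adjusted p = 0.000159). humanlincRNA1432+ fell 3.64-fold, from 1.57, 1.50, 1.38 and 1.46 to -0.94, -0.01, -0.35 and -0.25 (-1.86 ± 0.18, adjusted p = 0.000145). The db/m arrays of these 4 probes were tightly grouped, whereas the db/db arrays ranged more widely.

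humanlincRNA1981-, whose locus has no plus probe, had -3.86, -2.29, -2.73 and -2.49 in db/db and -0.72, -0.97, -1.21 and -1.04 in db/m. This 3.63-fold fall (-1.86 ± 0.30, adjusted p = 0.00232) again had db/db replicate 1 as its lowest array. humanlincRNA0603+ fell 3.50-fold with the smallest spread of the 6, at -2.42, -2.21, -2.21 and -2.20 in db/db and -0.37, -0.49, -0.51 and -0.43 in db/m (-1.81 ± 0.08, adjusted p = 1.75e-05). Its minus partner was not well above background on any array. All 6 falls kept their direction and their call under the 18 other fits run. Their size under normexp ran from -2.42 to -1.10, and humanlincRNA1044- (-1.10) and humanlincRNA1981- (-1.16) shrank the most.

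**Figure D3:**
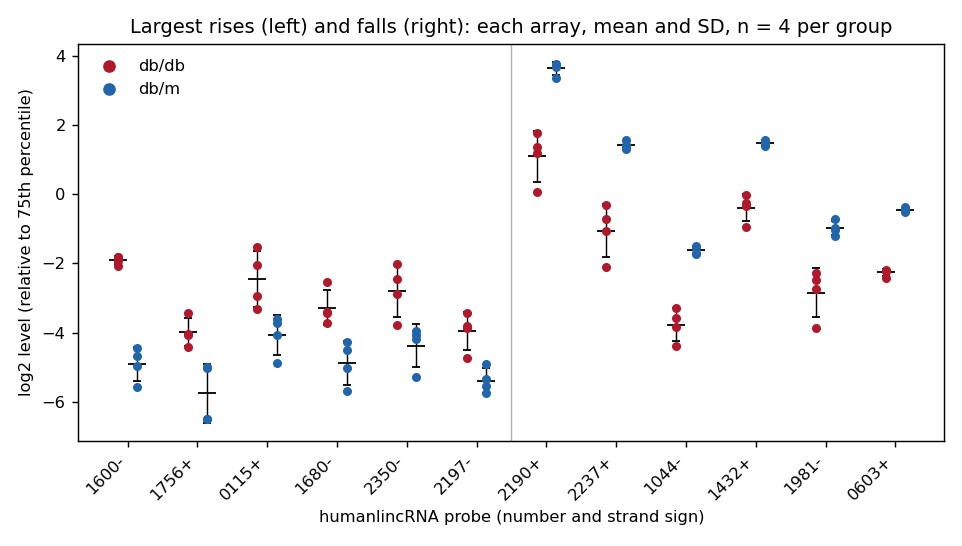
Levels (y axis, log2 relative to the array's 75th percentile) of the 6 largest rises and 6 largest falls (x axis, locus number and strand sign) on each array, db/db in red and db/m in blue, with the mean as a line and the SD as whiskers (n = 4 per group). The db/m values of the rises lie mostly below -4, near background, whereas the falls start from db/m levels between -1.62 and 3.64.

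Among the db/db arrays, replicate 1 was the lowest more often than the others in these probes. It was the lowest db/db array in all 6 named falls, and db/db replicate 2 was the highest in 5. Over all tested humanlincRNA probes replicate 1 was the lowest db/db array in 37.8%. Single db/m arrays were extreme as often, with db/m replicate 2 the lowest db/m array in 37.5% and db/m replicate 8 the highest in 44.8%. Among the 25 called falls of at least 2-fold db/m replicate 7 was the lowest db/m array in 14 and db/db replicate 1 the lowest db/db array in 21. Among the 18 called rises of at least 2-fold db/db replicate 1 was the lowest in 13. Of the 602 ASMM10LNC falls of at least 2-fold db/db replicate 1 was lowest in 75.1%, and of the 549 rises in 40.6%, against 25.7% of the tested ASMM10LNC probes. Without this array the 6 falls were between -2.20 (humanlincRNA2190+) and -1.52 (humanlincRNA1981-) and all called, and 26 probes were called at least 2-fold higher and 21 at least 2-fold lower.

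Detection on all arrays of one group and on none of the other was found in db/db alone. Well above background on every db/db array, and on none from db/m, were 7 humanlincRNA probes, which is 0.891% of the tested probes against 0.461% over the array and 0.371% of the ASMM10LNC probes. The reverse was found at 0 humanlincRNA probes, at 0.0366% of the tested probes of the array and at 0.0395% of the ASMM10LNC probes. Looser counts held both directions. On at least 1 db/db array and no db/m array 69 of the 1092 members were detected, and on at least 1 db/m array and no db/db array 12. Over all 60691 probes these counts were 2018 and 246, and for the 27812 ASMM10LNC probes 814 and 96. Counting every member, 168 were detected on more db/db than db/m arrays and 34 on more db/m arrays. For the ASMM10LNC probes these counts were 2386 and 317, and over all probes 5431 and 753. The lean toward db/db was thus present over the whole array. The lowest level that counted as well above background lay between -5.48 and -4.97 on the db/db arrays and between -5.02 and -4.67 on the db/m arrays. The part of that limit in these counts was not tested.

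For these probes no db/m spot was well above background, so the fold is given as a lower limit. It takes the db/db mean and, for each db/m array, whichever is higher of the probe's own level and the dimmest level that counted as detected there. By this limit humanlincRNA0493- was at least 1.97-fold higher in db/db, with -4.66, -3.09, -3.50 and -4.38 on the db/db arrays. humanlincRNA0922+ was at least 1.75-fold higher, humanlincRNA1070+ at least 1.54-fold and humanlincRNA1697+ at least 1.39-fold. These probes entered the test only through the group in which they are high, so no p-value is given for them. Under normexp their db/db minus db/m differences were 0.28, 0.10, 0.10 and 0.12 in the order given. The remaining 3 probes, humanlincRNA1150+, humanlincRNA2038+ and humanlincRNA1398+, overlapped between the groups in their measured values.

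Detection was shared by both strands at some loci and not at others. Of the 535 loci with both probes, 278 had both strands tested, 96 the plus strand alone, 114 the minus strand alone and 47 neither. Both strands were well above background on all 8 arrays at 196 loci. At 123 loci one strand was detected on all 8 arrays and the other on none, with the plus strand detected at 55 and the minus strand at 68. At 14 loci neither strand was detected on any array. Across the 535 loci the mean levels of the strands correlated with r = 0.09, which describes probes that share the arrays but differ in sequence. By strand, 381 plus probes were tested with 38 called higher and 42 lower, and 405 minus probes with 35 called higher and 61 lower.

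Some loci gave a bright signal from one strand on every array and none above background from the other. humanlincRNA1739+ had 6.87, 7.33, 6.80 and 6.61 in db/db and 6.93, 6.98, 6.76 and 6.86 in db/m, while humanlincRNA1739- was between -7.53 and -6.14 throughout. humanlincRNA1516- had 4.42, 5.58, 4.60 and 3.90 in db/db and 4.82, 4.87, 4.36 and 4.26 in db/m, with humanlincRNA1516+ not well above background on any array. humanlincRNA0267- had a mean level of 2.17, with humanlincRNA0267+ likewise not well above background. At none of these 3 loci was the detected strand called, with differences of 0.02 ± 0.15, 0.05 ± 0.32 and -0.12 ± 0.12 (adjusted p = 0.928, 0.927 and 0.497). The signs of humanlincRNA1739+ and humanlincRNA1516- turned when single arrays were left out, with ranges from -0.12 to 0.12 and from -0.27 to 0.29.

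The strands of one locus also differed in how they changed. At the 278 loci with both strands tested, the db/db minus db/m differences of the strands correlated with r = 0.08, a description over loci that share the 8 arrays. Neither strand was called at 156 of them, one strand at 114 and both strands at 8. Both strands were called higher at 3 of the 8 loci, both lower at 4, and in opposite directions at 1. A call at one strand alone does not show that the strands differ, so the difference between the strands was tested directly.

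Within each array the minus level was subtracted from the plus level, which removes the scaling of the array, and the result was compared between the groups by limma over the 278 loci. The strand difference was called at 56 loci, 20.1%, with the plus strand shifted up in db/db relative to the minus strand at 31 and down at 25. The strands' own differences had opposite signs at 39 of the 56. Opposite signs enlarge the tested difference, so this share follows in part from how the loci were chosen. It does not show that both strands changed. Of the 114 loci with one strand called, 50 were also called in this test and 64 were not. The count fell when any single array was left out, and the part of the smaller number of arrays in this was not tested. It was 46 without db/db replicate 1, 24 without replicate 2, 20 without replicate 5 and 33 without replicate 8. It was 12, 24, 35 and 34 without db/m replicates 2, 5, 7 and 8. With slide column as a block it was 36, and with no filter on dim probes, over 535 loci, it was 33.

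**Figure D4:**
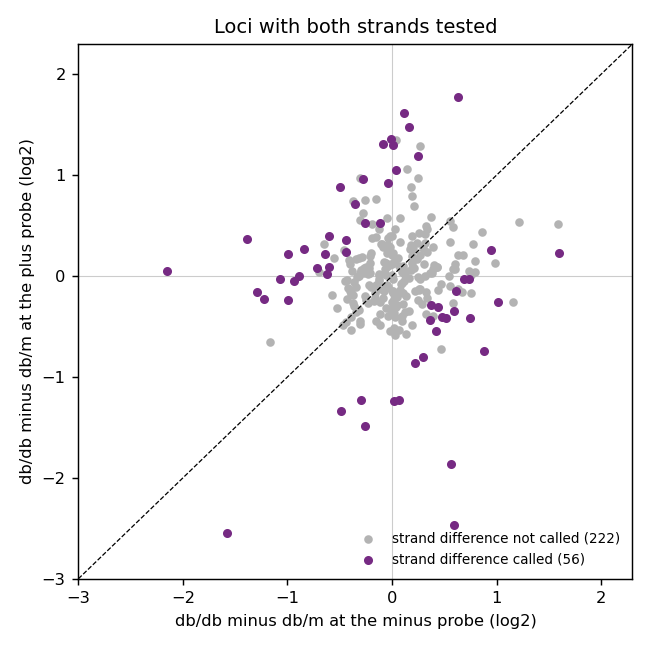
Difference between db/db and db/m (log2) at the minus probe (x axis) and the plus probe (y axis) of the 278 loci with both strands tested, with purple points for the 56 loci whose strand difference was called and grey points for the other 222. Points on the dashed line changed equally on both strands, and called loci lie away from it by selection. At 39 of the 56 called loci the strands' differences have opposite signs, which this selection favours.

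The largest such differences came from a large change on one strand beside a small one on the other. At humanlincRNA2237 the plus level exceeded the minus level by 1.70, 2.50, 1.85 and 2.64 in db/db and by 5.79, 5.07, 5.14 and 4.92 in db/m. The plus strand fell as described, whereas the minus strand stood 0.59 ± 0.22 higher in db/db and was not called (adjusted p = 0.079). The strand difference moved by -3.06 ± 0.27 (adjusted p = 0.000111). Without db/db replicate 1 the minus strand was called higher, at 0.78 (adjusted p = 0.0167). humanlincRNA1432 had the same layout, with a strand difference of -2.43 ± 0.27 (adjusted p = 0.000398) and a minus strand at 0.56 ± 0.27 (adjusted p = 0.146). That minus strand was called without db/m replicate 5, at 0.80 (adjusted p = 0.0283).

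humanlincRNA1044 and humanlincRNA1152 changed on the minus strand. At humanlincRNA1044 the plus minus minus gap was 0.51, -0.30, -0.14 and 0.03 in db/db and -2.18, -2.08, -2.37 and -2.05 in db/m, with no overlap. The plus strand had means of -3.74 ± 0.13 (db/db) and -3.79 ± 0.24 (db/m; SD, n = 4), a difference of 0.05 ± 0.13 (adjusted p = 0.823). The strand difference was 2.20 ± 0.21 (adjusted p = 0.000111). humanlincRNA1152- fell 2.61-fold, from -3.52 ± 0.24 to -4.90 ± 0.41 (-1.38 ± 0.21, adjusted p = 0.00139), and humanlincRNA1152+ was 0.36 ± 0.24 higher and not called (adjusted p = 0.287). The strand difference there was 1.75 ± 0.27 (adjusted p = 0.00333). Both strands of this locus lie near background, with humanlincRNA1152+ well above it on 2 db/m arrays and humanlincRNA1152- on 3 db/db arrays. Under normexp the strand difference of humanlincRNA1152 was 0.42, still called (adjusted p = 0.00715). The plus strands of humanlincRNA1044 and humanlincRNA1152 lay on the other side of 0 under normexp, at -0.07 and -0.03.

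humanlincRNA1166 was the locus whose strands were called in opposite directions. The plus probe had -2.02, -0.94, -1.42 and -1.29 in db/db and -0.83, -0.66, -0.51 and -0.71 in db/m, a fall of 1.67-fold (-0.74 ± 0.20, adjusted p = 0.0246). The minus probe had -3.86, -3.24, -4.36 and -4.17 in db/db and -5.12, -4.70, -4.69 and -4.62 in db/m, a rise of 1.84-fold (0.88 ± 0.23, adjusted p = 0.0203). The groups did not overlap on either strand, and the minus probe was well above background on 2 of the 4 db/m arrays. The strand difference was -1.62 ± 0.26 (adjusted p = 0.00333), and leaving out any single array kept it called. Each strand's own call was less firm. The fall was lost without db/db replicate 5 (adjusted p = 0.0589) or db/m replicate 5, 7 or 8 (adjusted p = 0.0536, 0.061 and 0.0515). The rise was lost without db/m replicate 2 (adjusted p = 0.0539) and under normexp, where it was 0.09 (adjusted p = 0.442).

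**Figure D5:**
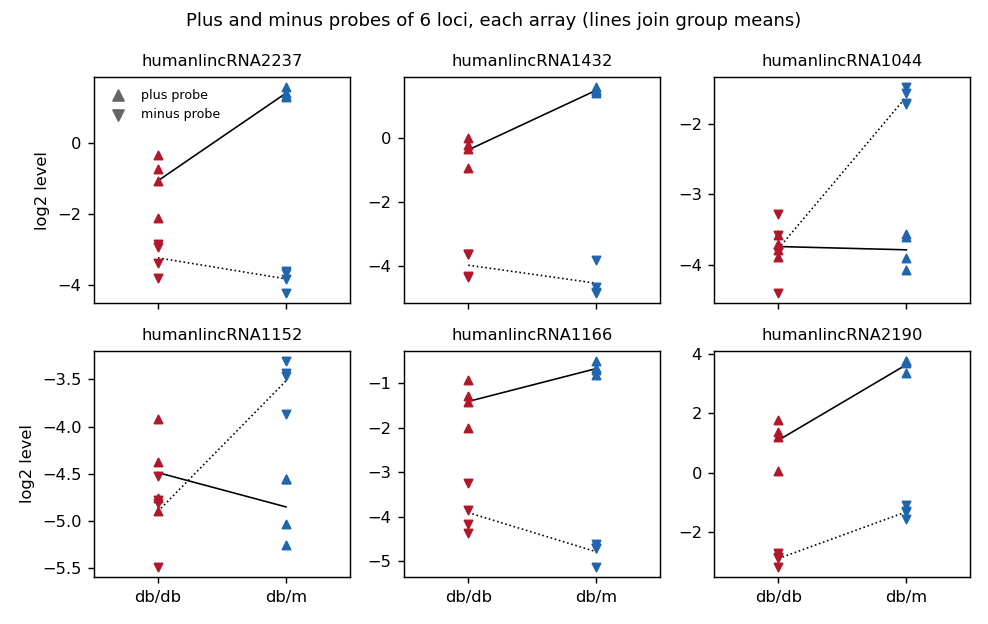
Levels (y axes, log2 relative to the array's 75th percentile, scaled per panel) of the plus probe (triangles up, solid line) and the minus probe (triangles down, dotted line) of 6 loci on each db/db (red) and db/m (blue) array, with lines joining the group means. At humanlincRNA2237, humanlincRNA1432, humanlincRNA1044 and humanlincRNA1152 one strand is called and the other is not, at humanlincRNA1166 the strands go opposite ways, and at humanlincRNA2190 both are lower in db/db.

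Both strands changed together at a few loci. At humanlincRNA2190 the minus probe fell 2.98-fold beside the plus probe described above, with -3.17, -2.71, -2.86 and -2.84 in db/db and -1.11, -1.29, -1.55 and -1.33 in db/m (-1.57 ± 0.13, adjusted p = 6.97e-05). The plus strand fell more, and the strand difference of -0.97 ± 0.26 was called (adjusted p = 0.0356). That call was lost without db/db replicate 5 (adjusted p = 0.0778) or any of db/m replicates 2, 5, 7 and 8 (adjusted p = 0.0721, 0.0618, 0.053 and 0.0638). At humanlincRNA1093 the plus probe fell 1.57-fold (-0.65 ± 0.16, adjusted p = 0.0155) and the minus probe 2.24-fold (-1.16 ± 0.12, adjusted p = 0.000249). The groups overlapped on the plus strand, and the strand difference of 0.51 ± 0.22 was not called (adjusted p = 0.132).

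At humanlincRNA1756 both strands rose. The minus probe had -1.17, -0.70, -0.89 and -0.81 in db/db and -1.71, -2.05, -1.20 and -1.15 in db/m, a 1.55-fold rise with a narrow overlap (0.63 ± 0.20, adjusted p = 0.0451). It was no longer called without db/db replicate 2, 5 or 8 (adjusted p = 0.108, 0.0955 and 0.0912) or without db/m replicate 2 or 5 (adjusted p = 0.104 and 0.0856), or with slide column as a block (adjusted p = 0.0564). The strand difference was 1.14 ± 0.25 (adjusted p = 0.022). Without db/m replicate 2 it was 0.95 and not called (adjusted p = 0.0549), and under normexp it was -0.21 (adjusted p = 0.244).

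humanlincRNA2163 was the brightest of the named loci at which both strands rose. The plus probe had 1.87, 1.96, 2.13 and 1.79 in db/db and 1.56, 1.53, 1.27 and 1.21 in db/m, and the minus probe had 5.29, 5.87, 5.70 and 5.33 in db/db and 4.83, 4.73, 5.14 and 5.27 in db/m. Neither strand overlapped between the groups, although on the minus strand the gap was only between 5.27 and 5.29. The differences were 0.54 ± 0.12 (adjusted p = 0.0083) and 0.55 ± 0.17 (adjusted p = 0.0379). The minus call ended when db/db replicate 2 or 5 was left out (adjusted p = 0.0924 and 0.1), and likewise for db/m replicate 2, 5 or 7 (adjusted p = 0.0917, 0.094 and 0.0512) and with slide column as a block (adjusted p = 0.0693). The strand difference was -0.01 ± 0.24 (adjusted p = 0.983), so no difference between the strands was detected, within that error.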

How the data were processed

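The 8 one-colour arrays were scanned and quantified by the authors in Agilent Feature Extraction 11.0.1.1, per the file headers, and the processed intensity used here had its background removed by that software. A log2 table deposited by the authors holds all 1092 members. Its columns correlated with their own arrays at r = 0.996 to 0.998. Its method is not given in the sources used here. The genome build in the headers names no target of these probes.

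From the intensities, log2 was taken, the 75th percentile of the non-control spots of the array was subtracted, and spots marked as outliers were left out. Non-control probes of a few other name series, such as those named as negatives, were then set aside from all counts and tests of probes. Probes well above background on at least 4 of 8 arrays were tested two-sided for group alone by lmFit and eBayes of limma 3.58.1 (R 4.3.3), with Benjamini-Hochberg adjustment over all 54638. Strand differences were adjusted over 278 loci. The code was tested on simulated data. Tables were made with pandas 2.3.3 and numpy 2.4.6 and plots with matplotlib 3.10.9, in Python 3.11.15. The number of arrays limits the precision.

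The members, lists and tests were chosen with earlier results of these data known. Named are the 6 largest rises and falls among called probes without overlap that were detected in both groups, the 4 brightest probes, up to 4 with the largest bound, the 5 largest strand differences, up to 4 loci with both strands called alike, and up to 3 detected on one strand, with the partner probes. A planned naming of further probes at the same locus and strand selected none. Alternatives were quantile normalization, normexp (offset 50, run on the median signal because the mean signal was not in the files), another percentile, the authors' table, other filters, priors and weights, blocks for replicate number and slide column, leaving out each array, a 2-fold limit and another detection flag. A block for slide or scan was not run, since there was 1 of each. Exact permutation tests were planned and not needed.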

Additional observations from a re-analysis of the deposited data

Results flagged for a closer look

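In 100 groups of 4 arrays behind the named probes, 4 held a value whose gap to the nearest array exceeded Dixon's 95% limit. Chance gives about 1 in 20 such groups. humanlincRNA0603+ was at -2.42 in db/db replicate 1, and the other db/db arrays lay between -2.21 and -2.20. humanlincRNA1119- was at -0.52 in db/db replicate 1, above the others at -0.89 to -0.85. humanlincRNA1432- was at -3.84 in db/m replicate 5, above the others at -4.85 to -4.68. humanlincRNA1166- was at -5.12 in db/m replicate 2, below the others at -4.70 to -4.62. Values of humanlincRNA1432- and humanlincRNA1166- at these levels lie near background.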

How the results depend on the processing

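Of 26 called probes that are named, 14 stayed called under every one of up to 18 other fits, and so did 4 of 7 named strand differences. The 26 include humanlincRNA0493-, humanlincRNA0922+, humanlincRNA1070+ and humanlincRNA1697+, and humanlincRNA0493- is among the 14. These probes passed the filter only through the db/db arrays, in which they are high, so their calls carry no weight in these counts. The cause of the changes below was not tested, apart from the 2-fold limit, which only removes calls. The 176 humanlincRNA calls became 43 at 2-fold and 118 to 196 when single arrays were left out, and the 6565 ASMM10LNC calls became 1151 at 2-fold and 4468 to 6996. The 56 strand differences became 28 at 2-fold, 33 with no filter, 36 with slide column as a block, and 12 to 46 with single arrays left out. The median humanlincRNA difference was -0.065 with quantile normalization, -0.072 with normexp and -0.064 with the authors' table, and -0.02 to 0.04 with single arrays left out. By the flag for a positive and significant signal, detection averaged 90.5% in db/db and 86.3% in db/m, compared with 73.2% and 67.8%, and 430 loci had both strands detected instead of 278.

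Replicate numbers 2, 5 and 8 occur in both groups, and the labels do not say whether they pair the arrays. Arrays of one number did not deviate together from their group means (correlations of -0.02, -0.13 and -0.17). With so few arrays this cannot settle whether the numbers mark a pairing. With the replicate number as a block, which leaves out db/db replicate 1 and db/m replicate 7, 112 humanlincRNA probes (59 higher, 53 lower), 3623 ASMM10LNC probes and 6 strand differences were called. The block also ended the calls of humanlincRNA1119-, humanlincRNA1166 on each strand and in its strand difference, humanlincRNA2163-, and the strand differences of humanlincRNA2190 and humanlincRNA1756, and under it humanlincRNA2350+ was called at 0.66. Slide column as a block ended the calls of humanlincRNA1119-, humanlincRNA1756- and humanlincRNA2163-, and under it humanlincRNA2237- and humanlincRNA2350+ were called.

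Under normexp 1 of the 176 humanlincRNA calls and 2 of the 56 called strand differences changed sign. Of the named results 7 changed sign under some setting, and none of these was called in the altered direction. The strand difference of humanlincRNA1756 was -0.21 with normexp. humanlincRNA1739+ was -0.0082 with the block and -0.12 to 0.12 with arrays left out. humanlincRNA1044+ was -0.059 with quantile normalization, -0.065 with normexp, -0.058 with the authors' table, -0.0012 with the block and -0.050 to 0.12 with arrays left out. humanlincRNA1516- ran from -0.27 to 0.29. With normexp humanlincRNA1152+ was -0.030 and humanlincRNA1680+ -0.0089. The strand difference of humanlincRNA2163 was 0.0029 with quantile normalization, 0.0035 with the authors' table and -0.17 to 0.12 with arrays left out. Signal over background limits the dim rises, whose db/m spots were in part not well above background.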
